A study of Homo sapiens with 3 samples.

Results

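The genes examined here encode the factors that start and extend protein synthesis. They are the 71 protein-coding genes of 20050 placed on chromosomes by the RefSeq table of GRCh38 whose symbols start with EIF1 to EIF6 or with EEF. Membership is set by the symbol, which therefore also takes in kinases, methyltransferases and binding proteins that act on the factors. Protein-bound RNA was measured by GoldCLIP-seq, a crosslinking and pull-down method in which a HaloTag ties the protein covalently to beads, in the human colorectal carcinoma line HCT116. The series has 3 samples of 1 library each: HCT116 cells with HaloTag alone, with RPL22-HaloTag and with RPL22L1-HaloTag. All were grown in the same medium with no treatment named. Whether a tagged line was 1 clone and whether a tag sits at the gene's own locus are not given in the sources used here. The peaks of the RPL22-HaloTag cells form the RPL22 list and those of the RPL22L1-HaloTag cells the RPL22L1 list. HaloTag alone was not analysed here. Since a group has only 1 library, differences between groups could not be tested. Intervals are exact Clopper-Pearson 95% intervals that cover counting error only, and read depth is unknown.

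Initiation factors bring the small ribosomal subunit, the initiator tRNA and the mRNA together. eIF2 carries the initiator tRNA and eIF2B recharges it with GTP. The kinases named EIF2AK phosphorylate eIF2 under stress. eIF3 is a large scaffold on the small subunit, and eIF4E, eIF4G and eIF4A bind and unwind the capped end of the mRNA. eIF5 and eIF5B act at start-codon choice and subunit joining, eIF6 keeps large subunits apart from small ones, and eEF1 and eEF2 drive elongation. RPL22 and its paralog RPL22L1 are RNA-binding proteins of the large subunit. Several factor genes also carry small nucleolar RNAs (snoRNAs), guides of RNA modification, in their introns. Peaks with the summit inside a snoRNA gene were kept apart for this reason. Genes of small Cajal body RNAs (the SCARNA series), which are snoRNA relatives, were treated alike.

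Most factor genes held peaks in both lists. The summit, the highest point of a peak, lay within these genes and outside snoRNA genes for 564 RPL22 peaks and 1264 RPL22L1 peaks. A further 5 and 10 peaks had their summit in a snoRNA gene. Of the 71 genes, 62 held an RPL22 summit, or 87.3% (77.3 to 94.0%), beside 68.2% of all protein-coding genes. An RPL22L1 summit lay in 63 genes, or 88.7% (79.0 to 95.01%), beside 69.7%. Both lists reached 61 genes, or 85.9%, beside 63% of protein-coding genes, and 7 genes, or 9.86%, held none in either list, beside 25.2%. The number of summits per gene ran from 0 to 62 with a median of 6 for RPL22, and from 0 to 101 with a median of 13 for RPL22L1. The medians over all protein-coding genes were 3 and 4.

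**Figure D1:**
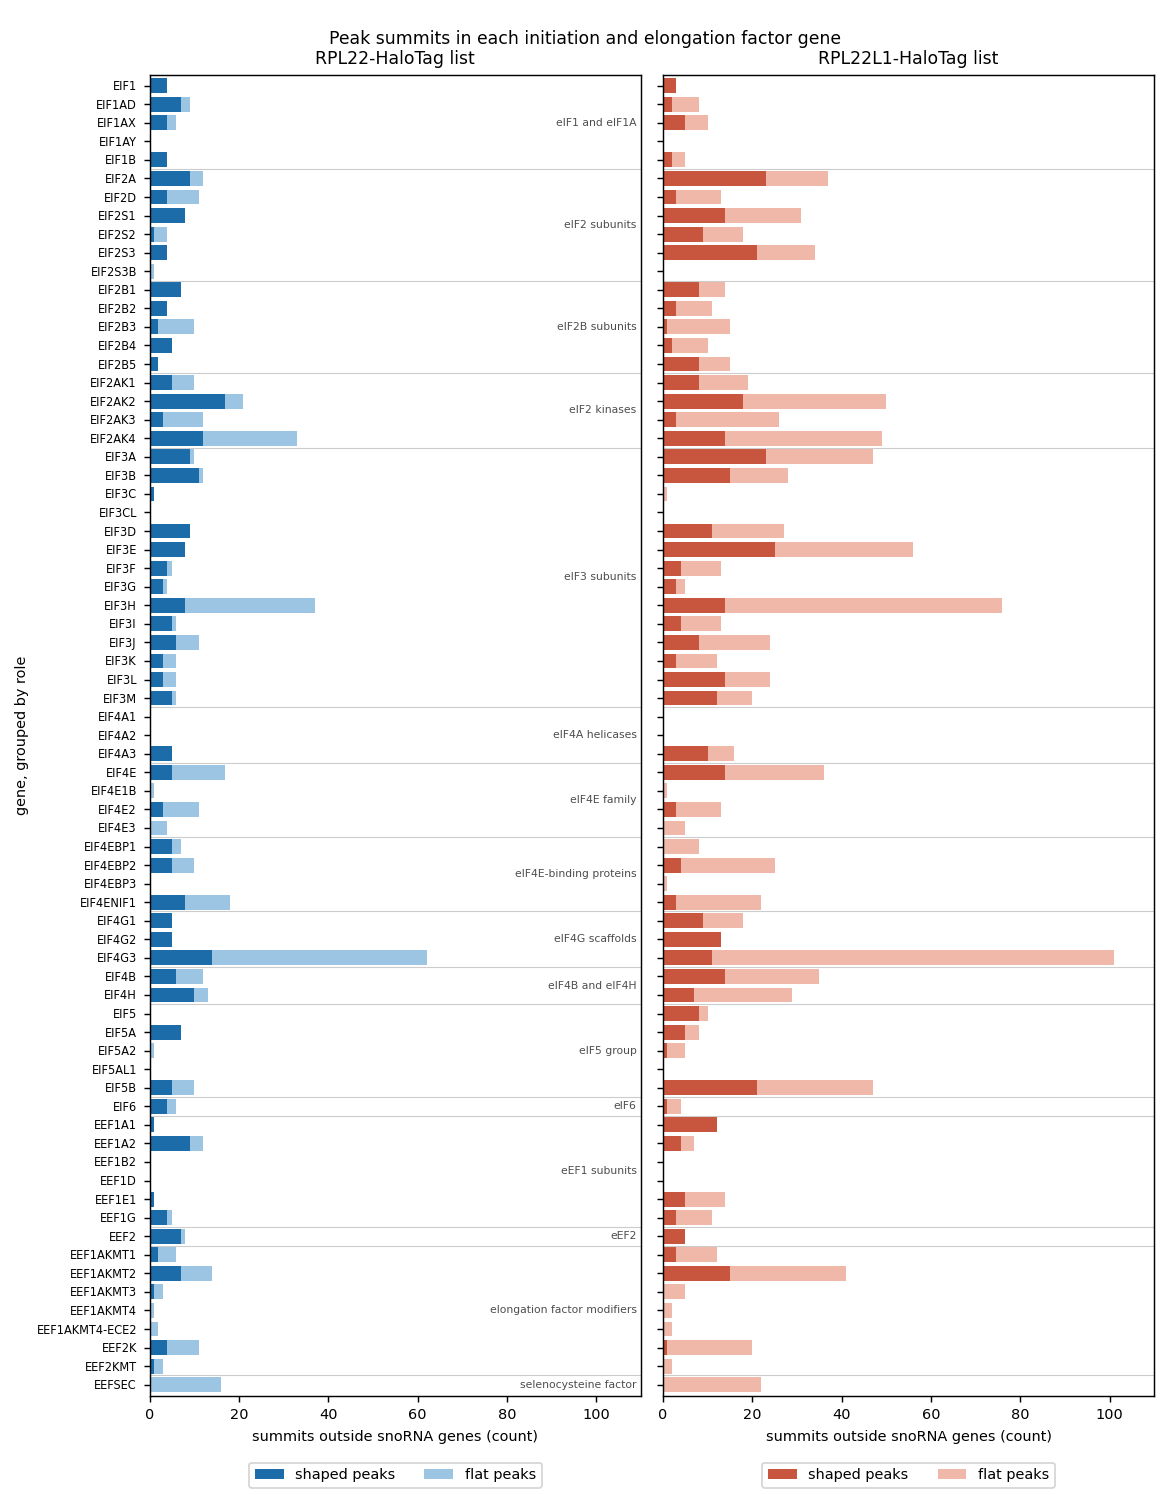
Number of peak summits outside snoRNA genes in each of the 71 factor genes, in the RPL22 list (left) and the RPL22L1 list (right), with dark bars for shaped peaks and light bars for flat peaks. EIF4G3 has the longest bars, 62 and 101, mostly flat, while EIF4A1, EIF4A2, EEF1B2 and EEF1D have none.

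The factor genes were not longer than other genes. Their median length was 20.8 kb beside 24.1 kb for protein-coding genes. The median number of summits per kb of gene was 0.267 for RPL22 beside 0.0981, and 0.675 for RPL22L1 beside 0.127. Among genes from 10 to below 30 kb, 89.3% of 28 factor genes held a summit in each list, beside 70.3% and 70.9% of protein-coding genes. Longer genes held more summits across the 71 genes, with Spearman correlations of 0.60 and 0.63, and the numbers in the 2 lists had a correlation of 0.80. These points share gene length and the abundance of each RNA, and RNA abundance was not measured here. More binding and more RNA therefore cannot be told apart.

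Peaks in the factor genes were more often shaped than those of other genes. A flat peak is 30 bases wide with its summit in the middle, and every other peak is called shaped. Of the 564 RPL22 peaks 301 were shaped, or 53.4% (49.2 to 57.5%), beside 38.4% of peaks in protein-coding genes. Of the 1264 RPL22L1 peaks 455 were shaped, or 36.0% (33.3 to 38.7%), beside 23.6%. Peaks of the same gene were counted as separate, so the intervals for shares of peaks, here and below, may be too narrow. At least 1 shaped RPL22 summit was held by 55 genes, beside 51.5% of protein-coding genes, and a shaped RPL22L1 summit by 53 genes, beside 45.3%. By score rank within its own list, an RPL22 peak of the top 1% lay in 9 genes, or 12.7%, beside 4.38%, and an RPL22L1 peak of the top 1% in 12 genes, or 16.9%, beside 7.13%. A gene with more peaks can reach the top 1% more easily. Counted by peak, 1.77% (0.853 to 3.24%) of the RPL22 peaks in factor genes ranked there, beside 0.765%. For RPL22L1 peaks it was 1.34% (0.785 to 2.14%), and the 0.835% of protein-coding genes lay within that interval. Scores were given by the authors, and those of different lists were not set against each other.

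**Figure D2:**
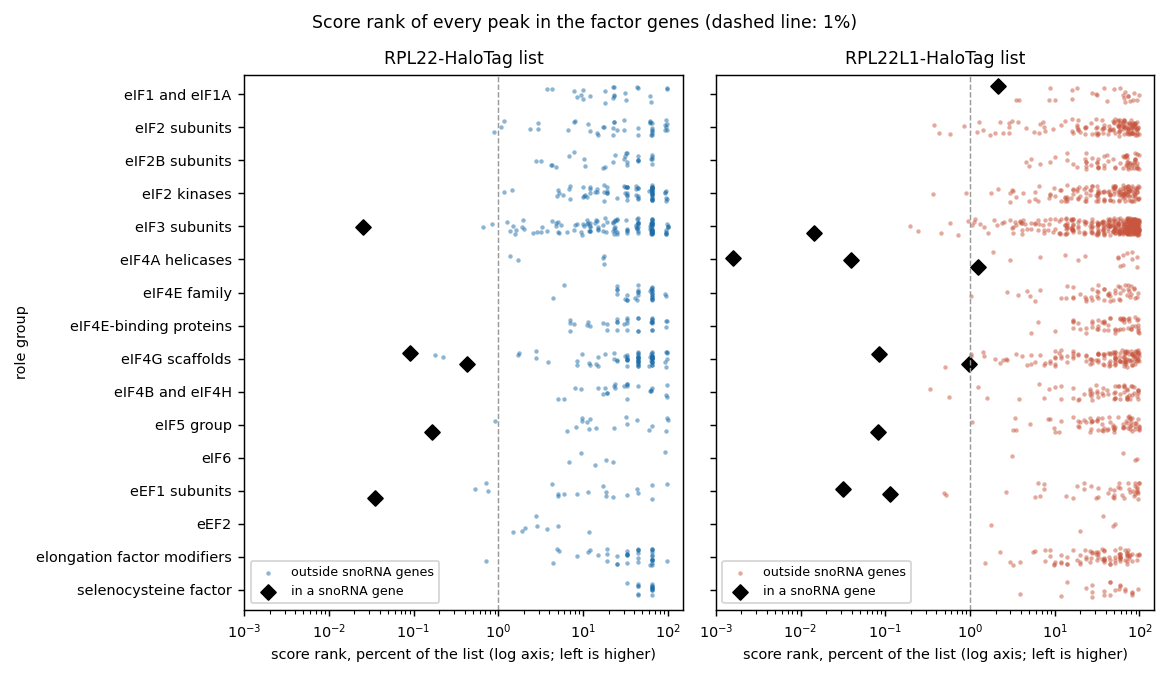
Score rank of every peak in the factor genes as a percent of its list on a log axis, by role group, in the RPL22 list (left) and the RPL22L1 list (right), with black diamonds for peaks in snoRNA genes. Outside snoRNA genes 10 RPL22 peaks and 17 RPL22L1 peaks lie left of the dashed line at 1%.

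Many factor mRNAs are known to begin with a C followed by an unbroken run of C and T, the 5′ terminal oligopyrimidine (TOP) start that ties translation of the ribosome's own machinery to growth signals. RefSeq start sites (GRCh38.p14) were held for 57 of the 71 genes. A C at the start followed by at least 4 further bases that are each C or T, read on the gene's strand only, was present in 12 of them, or 21.1% (11.4 to 33.9%), beside 4.60% of 15843 protein-coding genes. The first 20 bases of these genes are shown, with the run in capitals, because this start was several times as frequent among the factor genes as among all, although most factor genes lacked it.
EEF1A1 (chr6:73521013-73521032, minus strand): CTTTTTCgcaacgggtttgc
EEF2 (chr19:3985444-3985463, minus strand): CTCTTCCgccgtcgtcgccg
EIF2A (chr3:150546787-150546806, plus strand): CTCTTTCCgggacaacatgg
EIF2D (chr1:206612446-206612465, minus strand): CCTTTTCgcggccgggcccc
EIF2S3 (chrX:24054956-24054975, plus strand): CTCTTTTggcaacatggcgg
EIF2S3B (chr12:10505890-10505909, plus strand): CTCTTTTggcaacatggcgg
EIF3D (chr22:36529147-36529166, minus strand): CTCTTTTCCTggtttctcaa
EIF3F (chr11:7987337-7987356, plus strand): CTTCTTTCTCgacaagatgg
EIF3K (chr19:38619188-38619207, plus strand): CTCTTCCTgttcccgtcctt
EIF3M (chr11:32583831-32583850, plus strand): CTTTTCCggtcggcgtggtc
EIF4A2 (chr3:186783577-186783596, plus strand): CTTTTCagtcgggcgctgag
EIF4B (chr12:53006456-53006475, plus strand): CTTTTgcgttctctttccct
Summit numbers of these 12 genes differed widely: EIF4A2 held 0 in both lists, and EIF2A held 12 and 37.

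The 5 genes grouped with eIF1 and eIF1A, which hold the scanning complex open, had 23 summits from RPL22 and 26 from RPL22L1. Their medians were 4 and 5 per gene, beside 3 and 4 over all protein-coding genes. EIF1 (chr17:41688885-41692668) held 4 and 3, all shaped, and EIF1B held 4 and 5. EIF1AD, which shares the name and not the role of eIF1A, held 9 and 8, and EIF1AX held 6 and 10. EIF1AY held none. In each list 10 of these peaks overlapped a peak of the other list by at least 1 base.

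The genes of the eIF2 subunits held several times more summits in the RPL22L1 list, which is also the longer one. EIF2S1, EIF2S2 and EIF2S3, which encode the alpha, beta and gamma subunits of eIF2, held 8, 4 and 4 RPL22 summits and 31, 18 and 34 RPL22L1 summits. In EIF2S3 (chrX:24054956-24078810) all 4 RPL22 summits were shaped and overlapped RPL22L1 peaks. Its highest RPL22L1 peak, at chrX:24076760-24076839 with a score of 1583 and rank 947, had no overlapping RPL22 peak. Its highest RPL22 peak had rank 3626. EIF2S1 lies within the bounds of GPHN, so that its peaks, which carry no strand, cannot be given to 1 of these genes. EIF2S3B, a gene with the same first 20 bases as EIF2S3, held 1 flat RPL22 peak and none in the RPL22L1 list. EIF2A, a separate initiator tRNA carrier, held 12 and 37 summits, and EIF2D, which acts when ribosomes are recycled after termination, 11 and 13. With each summit given only to the shortest gene that holds it, EIF2A kept 6 of its 12 RPL22 summits.

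EIF2A (chr3:150546787-150586016) held 1 of the 3 places outside snoRNA genes where peaks of the top 1% of both lists overlapped. The RPL22 peak at chr3:150563521-150563641 had a score of 550 and rank 1376, and the RPL22L1 peak at chr3:150563554-150563641 a score of 1426 and rank 1098. Their summits lay 2 bases apart. The RPL22L1 list had a further top-1% peak in EIF2A at chr3:150567892-150568042 with rank 1457, which overlapped an RPL22 peak of rank 10156. There the table also places LOC124900547, a lncRNA gene. The second RPL22 peak of the gene by rank, 1651, at chr3:150575673-150575713, had no RPL22L1 peak over it.

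The eIF2B genes, EIF2B1 to EIF2B5, held 28 RPL22 and 65 RPL22L1 summits, of which 14 overlapped in each list, and none had a peak of the top 1%. All 5 RPL22 peaks of EIF2B4 and all 4 of EIF2B2 overlapped RPL22L1 peaks, while EIF2B3, the longest of them, had 10 and 15 summits and no overlap. The kinase genes held 76 and 144. EIF2AK2, which encodes PKR, the kinase activated by double-stranded RNA, held 21 and 50 summits, of which 17 and 18 were shaped. Its highest peaks in both lists, with ranks 1780 and 2257, overlapped with summits 3 bases apart at chr2:37148861-37148953 and chr2:37148839-37148949, where the table also places the pseudogene ARL14EPP1. EIF2AK4, which encodes GCN2, held 33 and 49 summits and EIF2AK1, which encodes HRI, 10 and 19. EIF2AK3, which encodes PERK, held 12 and 26. The highest RPL22L1 peak of EIF2AK3 had rank 930 but was flat, lay also within EIF2AK3-AS1 and had no RPL22 peak over it.

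The eIF3 genes, the largest role group, held the highest total of summits, 121 from RPL22 and 346 from RPL22L1, in 13 of 14 genes. Their medians were 6 and 22 per gene, beside 6 and 13 over all 71 factor genes. EIF3H (chr8:116642130-116766374) held 37 and 76, and EIF3E (chr8:108201216-108248717) 8 and 56. EIF3A, the largest core subunit, held 10 and 47 and EIF3B, the RNA-binding core subunit, 12 and 28. EIF3D, which can bind the cap itself, held 9 and 27. EIF3J, the loosely attached subunit, held 11 and 24, EIF3L 6 and 24 and EIF3M 6 and 20. EIF3I held 6 and 13, EIF3F 5 and 13, EIF3K 6 and 12 and EIF3G 4 and 5. Every gene of this group with summits held at least as many in the longer RPL22L1 list. EIF3C held 1 in each list and its near-identical copy EIF3CL none. How reads that match several places were treated is not given in the sources used here, so these low numbers may not be those of either gene alone.

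EIF3E held the highest RPL22L1 peak of the group outside snoRNA genes. It lay at chr8:108241786-108241926 with a score of 3046 and rank 497, and the RPL22 peak at chr8:108241802-108241871 had a score of 697 and rank 1017. Their summits lay 4 bases apart. A second pair in EIF3E, with ranks of 1947 for RPL22 and 1489 for RPL22L1, had summits 8 bases apart. All 8 RPL22 peaks of EIF3E were shaped and 7 overlapped RPL22L1 peaks, while 7 of the 56 RPL22L1 peaks overlapped RPL22 peaks. EIF3H had its highest RPL22L1 peak (rank 623, chr8:116655926-116655989) where the RPL22 list had none. Its highest RPL22 peak, rank 2436 at chr8:116648815-116648886, overlapped an RPL22L1 peak of rank 2925.

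The genes of the eIF4F complex differed within themselves. EIF4A1 and EIF4A2, the paralogous helicases of cap-dependent initiation, held 0 summits in both lists outside snoRNA genes, whereas EIF4A3, the helicase of the exon junction complex, held 5 and 16. EIF4E, the cap-binding protein, held 17 and 36 summits, EIF4E2 11 and 13, EIF4E3 4 and 5 and EIF4E1B 1 and 1. With each summit given only to its shortest gene, EIF4E2 kept 6 of its 11 RPL22 summits. Among the proteins that bind eIF4E, EIF4ENIF1 held 18 and 22, EIF4EBP2 10 and 25 and EIF4EBP1 7 and 8. EIF4EBP3 held 0 and 1. EIF4B and EIF4H, cofactors of the helicase, held 12 and 35 and 13 and 29. The highest RPL22L1 peak of EIF4H, rank 865 at chr7:74196878-74196914, and that of EIF4B, rank 1453 at chr12:53040313-53040357, had no RPL22 peak over them.

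The eIF4G genes held the highest RPL22 peaks of all factor genes outside snoRNA genes. In EIF4G1 (chr3:184314606-184335358), which encodes the main scaffold, the RPL22 peak at chr3:184323913-184323963 had a score of 4549 and rank 276. The RPL22L1 peak over it, at chr3:184323915-184323944, had a score of 240 and rank 47287. The other 4 RPL22 peaks of EIF4G1 had ranks from 18384 to 35780. In EIF4G2 (chr11:10797046-10808926), which encodes a scaffold without the eIF4E-binding part and starts at a non-AUG codon, the RPL22 peak at chr11:10808763-10808796 had a score of 2889 and rank 339. The RPL22L1 peak at chr11:10808764-10808796 had a score of 1287 and rank 1295, with its summit 2 bases away. This place lies 147 bases inside the 5′ bound of the gene. All 5 RPL22 and all 13 RPL22L1 peaks of EIF4G2 were shaped, and every RPL22 peak overlapped an RPL22L1 peak. EIF4G3, a paralog spread over more than 10 times the length, held 62 and 101 summits, of which 14 and 11 were shaped and 3 overlapped in each list.

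EIF5 (chr14:103334237-103345025), which encodes the GTPase activator of eIF2, held no RPL22 summit outside its snoRNA gene and 10 RPL22L1 summits, of which 8 were shaped. The highest of these, at chr14:103335746-103335833, had a score of 908 and rank 2678. EIF5B, the subunit-joining GTPase, held 10 and 47. EIF5A, a factor that relieves stalled ribosomes, held 7 and 8, and its highest RPL22 peak, rank 1412 at chr17:7312177-7312247, overlapped an RPL22L1 peak of rank 48069. EIF5A2 held 1 and 5 and EIF5AL1, an EIF5A-like copy, none. EIF6 held 6 and 4, with 4 and 1 shaped. Its highest peaks had ranks 10365 and 8025 and lay apart from each other.

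The genes of eEF1A, paralogs of each other, held opposite balances of summits. EEF1A1 (chr6:73515750-73521032), the main carrier of aminoacyl-tRNA to the ribosome, held 1 RPL22 summit with a score of 86 and rank 26303, and 12 RPL22L1 summits, all shaped. The highest RPL22L1 peaks of EEF1A1 had scores of 1316 and 1276 and ranks 1252 and 1317, at chr6:73520038-73520125 and chr6:73519339-73519391, and the RPL22 list had no peak over either. EEF1A2, the paralog of muscle and neurons, held 12 RPL22 and 7 RPL22L1 summits. Its highest RPL22 peak, 196 bases wide at chr20:63494794-63494989, had rank 1171, and the RPL22L1 peak over it rank 14936. EEF1G held 5 and 11, and its 2 highest RPL22 peaks, with ranks 819 and 1093, were met by no RPL22L1 peak and by a flat one of rank 224435. EEF1E1, a scaffold of the aminoacyl-tRNA synthetase complex, held 1 and 14 outside its small Cajal body RNA gene. EEF1B2 and EEF1D, nucleotide exchange subunits of eEF1, held none.

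EEF2 (chr19:3976056-3985463), the translocase, held 8 RPL22 and 5 RPL22L1 summits. The highest RPL22 peaks of EEF2 had scores of 395 and 344 and ranks 2272 and 2894, and lay at chr19:3976559-3976596 and chr19:3976416-3976490, near the 3′ end of the gene on the minus strand. Neither had an RPL22L1 peak over it. The only overlap in EEF2 was between an RPL22 peak of rank 3207 at chr19:3981931-3981966 and the highest RPL22L1 peak of the gene, rank 4465, at chr19:3981922-3981955. The modifiers of elongation factors held 39 and 82 distinct summits. Of these EEF1AKMT2, a lysine methyltransferase of eEF1A, held 14 and 41, and EEF2K, the kinase that stops eEF2, 11 and 20. The highest RPL22 peak of EEF2K had rank 1110 but was flat and had no RPL22L1 peak over it. EEF1AKMT4 shares its start with the readthrough gene EEF1AKMT4-ECE2, so their summits are in part the same. EEFSEC, the selenocysteine factor, held 16 and 22 summits, all flat.

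The snoRNA genes inside the factor genes held the highest peaks of the whole group. There were 19 such genes, of which 4 held an RPL22 summit, or 21.1% (6.05 to 45.6%), and 10 an RPL22L1 summit, or 52.6% (28.9 to 75.6%). Of all 644 snoRNA genes within protein-coding genes, 16.1% and 23.6% did. SNORA81, in EIF4A2, held an RPL22L1 peak at chr3:186786813-186786850 with a score of 3653287 and rank 4 of the list, and no RPL22 peak. SNORA4, also in EIF4A2, held an RPL22L1 peak of rank 101 and no RPL22 peak. The other 3 snoRNA genes of EIF4A2, SNORD2, SNORA63B and SNORA63, held none in either list. In EIF4A1, SNORD10 held an RPL22L1 peak of rank 3169, while SNORA48 and SNORA67 held none. SNORA41, in EEF1B2, held an RPL22L1 peak of rank 290. Thus the only peaks in EIF4A1, EIF4A2 and EEF1B2 were RPL22L1 peaks in snoRNA genes.

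Some snoRNA peaks were shared by the lists. SNORA19, in EIF3A, held an RPL22 peak of rank 39 at chr10:119060012-119060045 and an RPL22L1 peak of rank 37 at chr10:119060013-119060079, with the summit at the same base. SCARNA27, in EEF1E1, held peaks of rank 54 and 80, again with the summit at the same base. SNORA28, in EIF5, held peaks of rank 251 and 207 with summits 2 bases apart. SNORD97, in EIF4G2, held RPL22 peaks of rank 140 and 650, which 1 RPL22L1 peak of rank 215 spanned. SNORD66, in EIF4G1, held an RPL22L1 peak of rank 2447 and SCARNA9L, in EIF1AX, one of rank 5404, without RPL22 peaks. SNORD37 in EEF2, SNORD51 in EEF1B2 and an unnamed snoRNA gene each in EIF2AK4 and EIF3A held none. The part that snoRNA abundance plays was not tested.

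**Figure D3:**
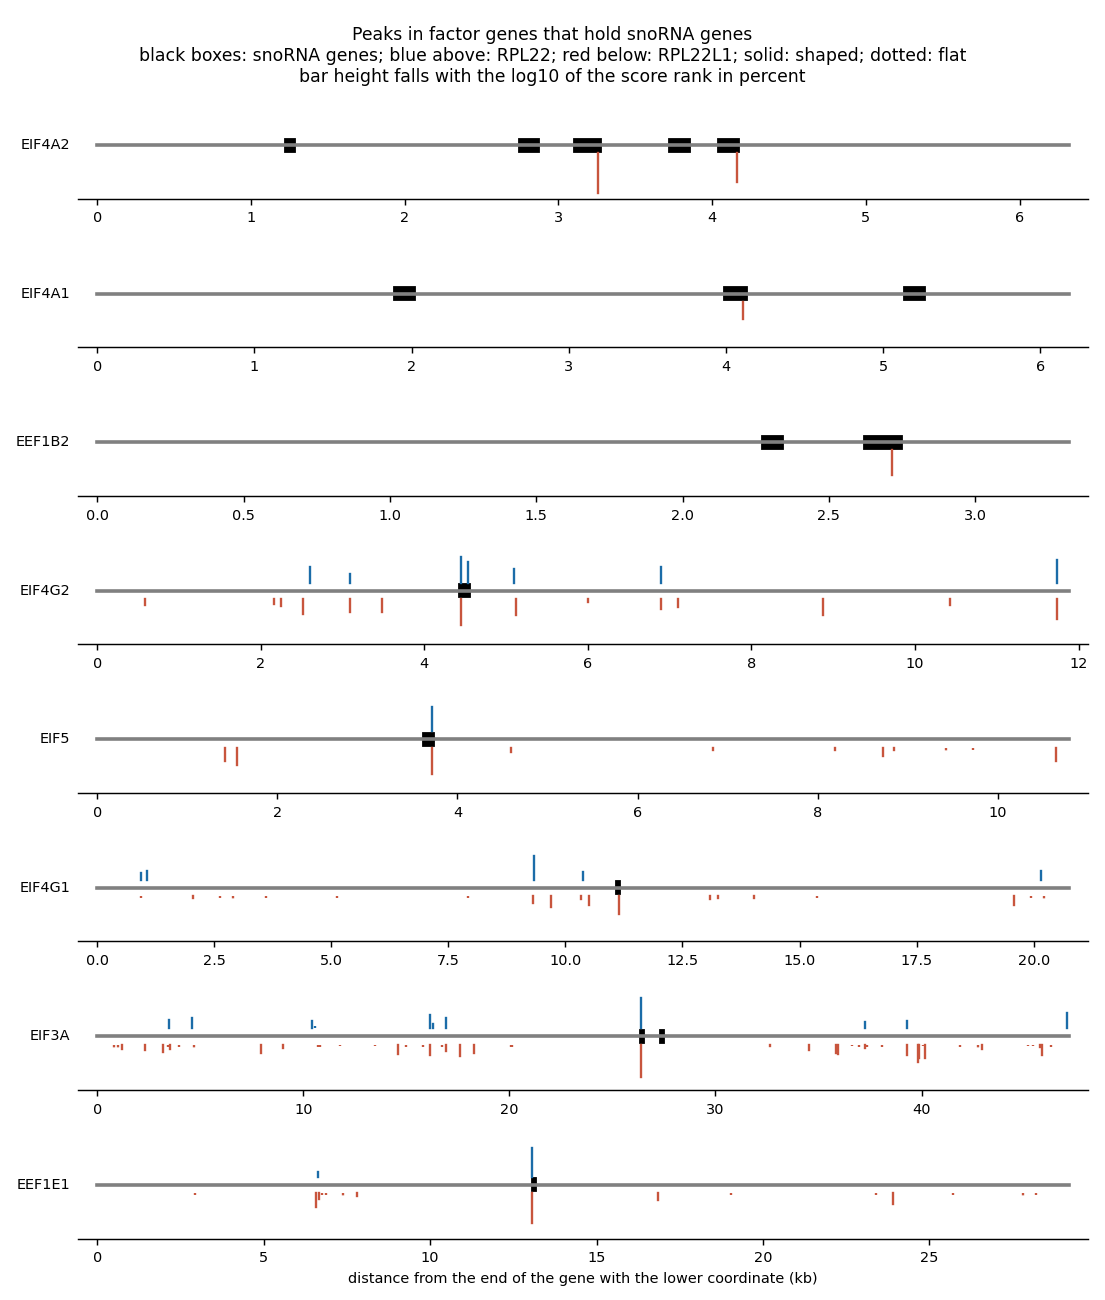
Peaks along 8 factor genes that hold snoRNA genes (black boxes), by distance in kb from the end of the gene with the lower coordinate, with RPL22 peaks above (blue) and RPL22L1 peaks below (red). Bars grow as the score rank in percent falls on a log scale, with dotted bars for flat peaks, and in EIF4A2, EIF4A1 and EEF1B2 all bars are red and stand at black boxes.

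Lists of near-equal size were compared next, since the RPL22L1 list is longer. The RPL22L1 list was reduced to the 149971 peaks with a score above 98, beside 154000 RPL22 peaks, and the log2 ratio of RPL22L1 over RPL22 summit number plus 1 was taken for genes with at least 10 summits. Of the 71 factor genes 44 met this limit. Their median ratio was 0.29, with quartiles of 0.00 and 0.76, beside 0.00 over 7775 protein-coding genes, with quartiles of -0.51 and 0.42. The ratio was above 1 in 8 factor genes, or 18.2% (8.19 to 32.7%), beside 5.84% of protein-coding genes. It was below -1 in 0 of 44, with an upper bound of 8.04%, beside 9.66%. The limit of 10 summits is met more easily by a gene that is high in 1 list. The cut by score was made in the RPL22L1 list alone, while RPL22 peaks of every score were kept. It left 743 of the 1264 RPL22L1 summits in factor genes, beside 149971 of the 254413 peaks of the whole list. The effect of a cut in only 1 list on the ratios was not tested.

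The 8 genes above 1 included all 3 subunits of eIF2, although the peaks of EIF2S1 cannot be told apart from those of GPHN. EIF2S3 held 4 RPL22 and 18 RPL22L1 summits in these lists, a log2 ratio of 1.93. EIF2S2 held 4 and 11, a ratio of 1.26, and EIF2S1 held 8 and 19, a ratio of 1.15. EIF5B held 10 and 28, a ratio of 1.40. EIF3E held 8 and 22 (1.35) and EIF3A 10 and 24 (1.18). EEF1AKMT2 held 14 and 32 (1.14) and EIF4G2 5 and 12 (1.12). EIF3L, with 6 and 13 and a ratio of 1, lay just outside.

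At the other end EIF1AD held 9 and 5 (-0.74), EEF1A2 12 and 7 (-0.70) and EEF2 8 and 5 (-0.58). Among genes with fewer summits, EEF1A1 held 1 and 7, EEF1E1 1 and 6, EIF5A2 1 and 5 and EIF5 0 and 6 in lists of near-equal size. EIF6 held 6 and 1 and EIF1 4 and 2. Among shaped peaks alone 27 factor genes had at least 10 summits. Their median ratio was 0.42 beside -0.14 over 3341 protein-coding genes, with 6 above 1 beside 7.63% and 1 below -1 beside 12.3%. The 6 were EIF2S3 (1.85), EIF3L (1.58), EIF5B (1.5), EIF4G2 (1.12), EIF3E (1.08) and EIF3A (1.07), and the 1 was EIF4ENIF1 (-1.58). EIF2S1 (0.64) and EEF1AKMT2 (0.91), above 1 among all peaks, lay below it here, and EIF2S2 had fewer than 10 shaped summits.

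**Figure D4:**
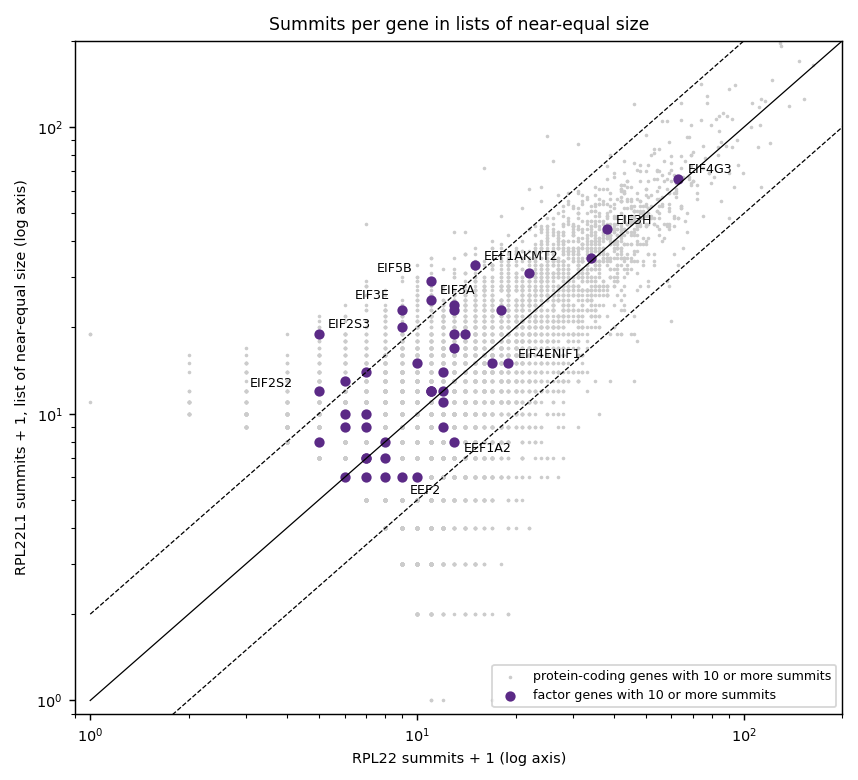
Summits plus 1 per gene in the RPL22 list (horizontal) and the RPL22L1 list reduced to near-equal size (vertical), both on log axes, for protein-coding genes (grey) and factor genes (purple) with at least 10 summits, with the line of equality and dashed lines at a log2 ratio of 1 and -1. There are 8 factor genes above the upper dashed line and 0 below the lower one.

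Peaks of the factor genes lay at the same places in both lists in part. Of the 564 RPL22 peaks 158 overlapped an RPL22L1 peak, or 28.0% (24.3 to 31.9%), beside 19.0% of RPL22 peaks in protein-coding genes. Of the 1264 RPL22L1 peaks 157 overlapped an RPL22 peak, or 12.4% (10.7 to 14.4%), beside 11.4%. By gene, 52 of 71 held such a peak, beside 39.8% of protein-coding genes in each list. Shape and rank went with overlap. Among shaped peaks 46.8% (41.1 to 52.7%) of RPL22 and 24.4% (20.5 to 28.6%) of RPL22L1 peaks overlapped, beside 39.7% and 26.4%. Among flat peaks it was 6.46% and 5.69%, beside 6.12% and 6.80%. Of RPL22 peaks beyond the top 1% and within the top 10%, 66.0% (55.8 to 75.2%) overlapped, beside 56.2%. The RPL22L1 share in that range was 29.1% (22.2 to 36.9%), beside 32.3%. Within the top 1%, 8 of 10 RPL22 peaks overlapped, or 80.0% (44.4 to 97.5%), beside 79.2%. For RPL22L1 it was 7 of 17 peaks, or 41.2% (18.4 to 67.1%), beside 55.9%. In the 158 overlapping pairs the median distance between summits was 11 bases, and in 51 pairs it was 5 bases or less.

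The position of summits along the gene was read for the factor genes with a strand in the RefSeq start table. Of 246 shaped RPL22 summits 15.4% (11.2 to 20.6%) lay in the last of 10 equal segments of the gene, beside 19.0% (18.6 to 19.3%) for protein-coding genes. Of 352 shaped RPL22L1 summits it was 14.8% (11.2 to 18.9%), beside 21.7% (21.3 to 22.1%). The first segment held 10.6% and 8.24%, beside 10.8% and 7.79%. The RPL22L1 interval for the last segment lay below the value for all genes, and the RPL22 interval included it. Summits of the same gene were counted as separate, so these intervals may be too narrow to set the groups apart. Genes without a strand in that table, among them EIF3A, EIF3E, EIF3H and EIF3L, were left out. Exons were not used here, so summits in exons and introns were not told apart.

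**Figure D5:**
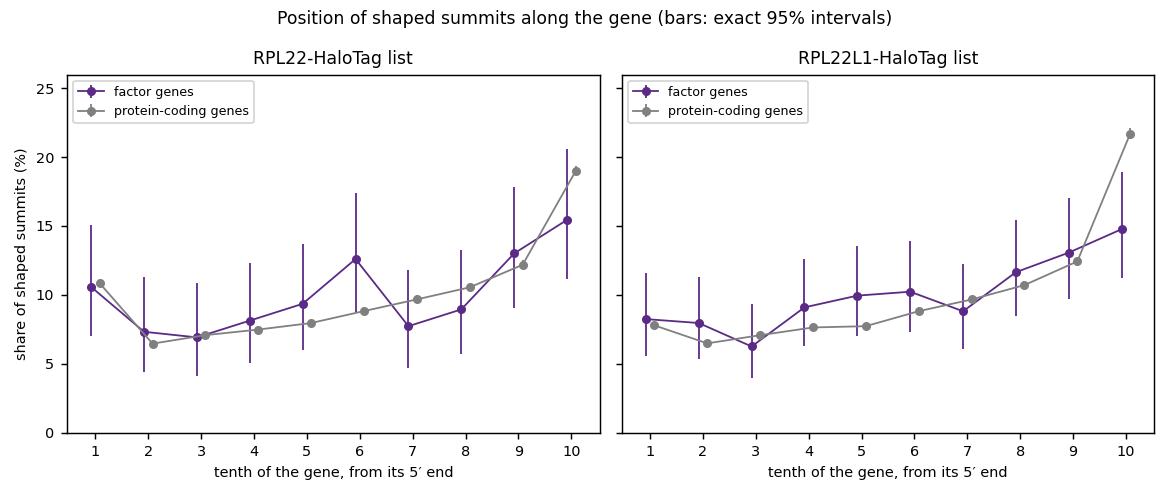
Share of shaped summits in each of 10 equal segments of the gene from its 5′ end, in the RPL22 list (left) and the RPL22L1 list (right), for factor genes (purple) and protein-coding genes (grey), with exact 95% intervals as bars. In the segment at the 3′ end the factor genes stand at 15.4% and 14.8%, below 19.0% and 21.7% for protein-coding genes.

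Peaks at the region of transcription start were read next. The RefSeq windows run from 250 bases before to 50 bases after the start, and 13 listed peaks reached into the windows of the 57 genes. The same number over all genes is not given here. Wholly inside the 15843 windows of protein-coding genes lay 679 RPL22 and 602 RPL22L1 peaks of 30 bases. The peaks of 30 bases wholly inside windows of the factor genes are shown 5′ to 3′ on the gene's strand. They are shown because they are the peaks of the group whose bases were held. Capitals mark GGTAAG or GGTGAG, letters common at the 5′ end of introns.
EEF1A1, RPL22L1 list (chr6:73520985-73521014, minus strand, rank 126337): gccgccagaacacaGGTAAGtgccgtgtgt
EIF6, RPL22 list (chr20:35284702-35284731, minus strand, rank 144005): tacttGGTAAGctggtgtgaggggaacctg
EIF3M, RPL22L1 list (chr11:32583833-32583862, plus strand, rank 225221): tttccggtcggcgtggtcttgcgagtggag
EIF3K, RPL22L1 list (chr19:38619195-38619224, plus strand, rank 197341): tgttcccgtccttgaggacgccgtgccggg
EIF4G3, RPL22L1 list (chr1:21111336-21111365, minus strand, rank 18949): atgaggaaactgaagtttggagcgatcaca
EIF1AD, RPL22 list (chr11:66002174-66002203, minus strand, rank 67492): aagacggacaagggaggggacgggaggcct
The EEF1A1 peak was the only shaped one of these. The EIF1AD peak lay 17 bases or more before the start, outside the gene's bounds, and the others lay within the bounds of their genes. The EIF6 peak ran from 14 bases before to 15 bases after the start held, 35284717, with its capitals before that start. That start lies inside the 5′ bound of EIF6, 35284772. The start held for EIF4G3, 21111383, lies far inside its 5′ bound, 21176897. None overlapped a peak of the other list. Over all protein-coding genes the letters were in 19 of 679 such RPL22 peaks, or 2.80%, and in 8 of 602 RPL22L1 peaks, or 1.33%, on the gene's strand. On the other strand they were in 10 and 13. Of every stretch of 30 bases in the windows, 1.27% and 1.16% held them on these strands.

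Pseudogene copies of the factor genes were counted, since reads can match both. The table held 165 with the same symbol starts, with 52 and 61 summits in all. An RPL22 summit lay in 44 of them, or 26.7% (20.1 to 34.1%), beside 9.82% of 16845 pseudogenes, and an RPL22L1 summit in 45, or 27.3% (20.6 to 34.7%), beside 11.3%. EEF1A1 has 50 named copies, of which 19 held an RPL22 and 13 an RPL22L1 summit. EIF4A1 has 13, of which 5 held a summit in each list, while EIF4A1 itself held none outside SNORD10. EEF1B2 and EEF1D have 8 copies each, of which 3 and 1 held an RPL22 summit and 0 and 2 an RPL22L1 summit. The part of the treatment of such reads in the low numbers of these genes was not tested.

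Of 26 genes for termination, poly(A) binding, scanning, signalling and mitochondrial translation, 25 held a summit in each list, beside 68.2% and 69.7% of protein-coding genes, with medians of 10.5 and 26 summits. In lists of near-equal size 22 met the limit of 10 summits, with a median log2 ratio of 0.50, 3 above 1 beside 5.84% of protein-coding genes and 2 below -1 beside 9.66%. The count below -1 is near the share over all genes. Above 1 were PABPC1, the poly(A)-binding protein, with 2 and 11 summits (2.00), DDX3X, a scanning helicase (1.66), and PDCD4, an inhibitor of eIF4A (1.58). Below -1 were TUFM, the mitochondrial EF-Tu, with 15 and 2 summits (-2.42), and MKNK2, a kinase of eIF4E, with 13 and 3 (-1.81). Of 9 markers of colon epithelium 8 held summits in each list, beside 68.2% and 69.7% of protein-coding genes. Of 6 markers of blood, stromal and endothelial cells 2 did, COL1A1 with 9 and 6 summits and PECAM1 with 6 and 2. Medians were 4 and 7 summits for the colon markers and 0 and 0 for the others. Peak lists show only where RNA was bound, so this is a weak check of the cell type.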

How the data were processed

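GoldCLIP-seq libraries of HCT116 cells with RPL22-HaloTag and RPL22L1-HaloTag, 1 each, were analysed from peak lists. The authors deposited 1 list per library with a whole-number score per peak and the summit offset. Per the file values, the lowest score was 13 in both lists, and the signal, p-value and q-value of every peak were 0. The submitters' processing notes name cutadapt 4.8, STAR 2.7.10a, UMI-tools 1.1.5 and MACS3 3.0.0a6 with build hg38. The control of peak calling, the scale of the score and the treatment of reads with several matches are not given in the sources used here. A control or a filter set by the authors would move which peaks are listed.

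Summits were column 2 plus column 10 plus 1, matched to RefSeq gene bounds of GRCh38.p14, which the deposited coordinates follow by the named build. Genes of the snoRNA type and of the SCARNA series were kept apart. Ranks count from the highest score within a list. Genes named were those with snoRNA peaks, the 10 best-ranked and the 5 richest per list, the 5 largest ratios in each direction, the best-known factors and those without summits. Further members are named to complete their role group, and their values were seen first. The members, lists and rules were chosen with earlier results of these data known. Computations ran in Python 3.11.15 (pandas 2.3.3, numpy 2.4.6) with intervals from scipy 1.17.1 and plots from matplotlib 3.10.9. On simulated summits, the counts equalled a direct count by the same rule for 200 of 200 genes. The overlap search found 200 of 200 planted overlaps, which overlapped by construction. It also matched a direct search for 300 of 300 shifted peaks.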

Additional observations from a re-analysis of the deposited data

How the results depend on the processing

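The number of factor genes with a summit stayed within 1.5-fold under every alternative run. The number of summits moved further. Leaving out peaks scored under their list's median gave 374 and 635, leaving out flat peaks 301 and 455, and lists of near-equal size 743 RPL22L1 summits. The overlapping share of RPL22 peaks was 16.1% with overlap of at least 50% of both peaks, 34.9% without flat peaks and 21.3% in lists of near-equal size. For RPL22L1 peaks it was 7.20%, 22.6% and 15.7% in these settings and 15.9% when peaks scored under the median were left out. In the whole lists, where the RPL22L1 list is the longer one, 29 factor genes had a log2 ratio above 1 in place of 8. The share over all protein-coding genes in that setting is not given here, so this count cannot be set against it. Below -1 there was 1 gene without flat peaks, EIF4ENIF1, and 1 with at least 5 summits, EIF6, in place of 0. The cause of the other shifts was not tested. Merging peaks within 10 bases changed nothing by construction, since the smallest gap between peaks was 31 bases. Merging within 50 bases and keeping apart only genes typed snoRNA were chosen after seeing the data. No paired analysis was possible because each group has 1 library. Depth is unknown, so a gene without a peak may be below detection.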
